A study of Mus musculus with 3 samples.

Results

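The 9 genes described here, Gclc, Gclm, Slc7a11, Gsr, Txnrd1, Srxn1, G6pdx, Nqo1 and Hmox1, are widely used targets of the transcription factor NRF2. They were taken as a gene list that was chosen with earlier results of these data known, and all 9 were found among the 22535 genes of the counts. Their unique molecular identifiers (UMIs, 1 for each captured RNA molecule) were summed over barcodes that had 200 genes or more and no more than 50% of their UMIs from mitochondria, by cell class and by library.

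NRF2, encoded by Nfe2l2, is held at a low level by KEAP1, which presents it for degradation. When reactive oxygen or electrophiles modify KEAP1, NRF2 escapes, enters the nucleus, pairs with small MAF proteins and binds antioxidant response elements, which the repressor BACH1 can also occupy. Its targets make and recycle glutathione and thioredoxin, supply the NADPH that both systems consume, reduce quinones and break down heme. The proximal tubule of the kidney is known for using these targets after ischemia.

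Single cells came from the kidney cortex of WT1CreERT2; Rosa26-tdT fl/+ mice given tamoxifen, so that cells expressing Wt1 (podocytes and some parietal epithelial cells, PECs) and their progeny carried tdTomato (tdT). The Sham library was made from sham-operated mice, with tdT+ and tdT- cells at 2:1. The other libraries were made at 24 h of reperfusion after severe ischemia of both kidneys (IRI), IRI24h-TDN with both kinds of cell at 2:1 and IRI24h-TD with tdT+ cells. Each condition had 1 library of cells pooled from 4 kidneys, made on the BD Rhapsody platform. Differences between conditions therefore stand without replicates and without a test. IRI24h-TD also differs from Sham in the sort, so that injury and sort cannot be told apart between them. Between the IRI libraries, sort and library cannot be told apart.

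After filtering, 26760 cells remained. Sham had 8047 of them, IRI24h-TDN 9024 and IRI24h-TD 9689, with median depths of 7746, 9151 and 9529 UMIs. The libraries shared 102 to 114 cell barcodes in each pair. A level is given as CPM (UMI counts of a gene, scaled to the total of its group and expressed per 10 to the power of 6 UMIs), with its exact Poisson 95% interval, and a share of cells with its exact Clopper-Pearson 95% interval, both of which cover counting error only. CPM counts molecules, so that no correction for gene length was made. Classes were named from marker genes and carry the ending "-like". A gene counted as higher or lower in a class when its CPM differed at least 2-fold between libraries with at least 50 cells each and at least 20 UMIs together, and the share of all genes that passed this limit stands beside the counts. Some genes had enough UMIs in all 11 classes compared. Of these, 54 were at least 2-fold lower and 22 at least 2-fold higher in IRI24h-TDN than in Sham in every class. For such genes a shift between whole libraries and a response of all cells cannot be told apart. None of the 9 genes was among them, but Nqo1 and Slc7a11 had too few UMIs in some classes to be counted. Gclm, Gsr, Txnrd1, Srxn1 and G6pdx were above Sham in all 11 classes, by less than 2-fold in some.

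The short motif at the core of antioxidant response elements was searched in RefSeq promoters (GRCm38.p6, 250 bases before to 50 after each start site) as TGACNNNGC and as TGAGNNNGC, on both strands, where 1 position cannot match both on the same strand. Promoters were found for 6 of the 9 genes, and 5 of these genes had a match, in 5 of their 8 promoters, against 27.8% of all 32851 promoters. By motif, 4 of the 8 promoters held TGACNNNGC, against 12.4% of all promoters, and 2 held TGAGNNNGC, against 17.6%. The following 5 stretches are shown because Srxn1, Txnrd1, G6pdx and Slc7a11 were at least 2-fold higher in proximal tubule cells after IRI, whereas Gclm, which also had a match, was not. The matched letters are in capitals and the sequences read 5′ to 3′ along the gene. The stretches of Srxn1 and Slc7a11 match TGAGNNNGC, and those of Txnrd1, G6pdx and Gclm match TGACNNNGC.
Srxn1, chr2:152105449-152105517, plus strand: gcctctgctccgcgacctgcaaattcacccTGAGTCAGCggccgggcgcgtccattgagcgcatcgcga
Txnrd1, chr10:82859084-82859152, plus strand: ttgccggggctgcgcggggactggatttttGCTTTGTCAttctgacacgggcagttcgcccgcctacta
G6pdx, chrX:74428899-74428967, minus strand: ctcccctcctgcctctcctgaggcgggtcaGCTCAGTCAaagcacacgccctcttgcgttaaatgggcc
Slc7a11, chr3:50443672-50443740, minus strand: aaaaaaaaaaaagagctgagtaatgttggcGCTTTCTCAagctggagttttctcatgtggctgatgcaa
Gclm, chr3:122245393-122245461, plus strand: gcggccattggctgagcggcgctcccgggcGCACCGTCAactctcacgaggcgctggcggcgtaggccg
The Srxn1 promoter held 3 matches. No match lay in the Nqo1 window, which says only that these letters are not in its 300 bases. A match is a description of letters and not of a bound site.

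The 9 genes had different homes among the cell classes. Over all libraries, among named classes with at least 50 cells, Gclm, Gsr, Txnrd1, Srxn1 and Nqo1 were highest in injured tubule-like cells. This class was a cluster of 337 cells led by Havcr1 and Krt20, markers of injured tubule. The cell cycle genes Top2a, Ube2c and Mki67 were also among its leading genes. Under the other settings tried, 2 to 5 of the 9 genes were highest in proximal tubule classes. Gclc was highest in ascending limb-like cells at 712 CPM (691 to 733), Hmox1 in monocytic-like cells at 891 CPM (870 to 913), and Slc7a11 in 52 neutrophil-like cells at 312 CPM (249 to 385). G6pdx, whose enzyme opens the pentose phosphate pathway, was at 19.7 CPM in PTEC-like (proximal tubule) cells and highest in monocytic-like cells, at 83.3 CPM. Podocyte-like cells, 18867 of the 26760, had 30.9 CPM of Gclc, 26.7 of Gsr, 24.8 of Srxn1, 18.3 of Hmox1 and 4.89 of Nqo1. These levels pool the libraries. In Sham alone, none of Gclm, Gsr, Txnrd1, Srxn1 and Nqo1 was highest in injured tubule-like cells. Gclm, for example, was at 148 CPM there and 426 CPM in PTEC-like cells. Gclc in Sham was at 119 CPM in ascending limb-like and 391 CPM in intercalated-like cells. The heat map shows the levels for every class and library with at least 50 cells.

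**Figure D1:**
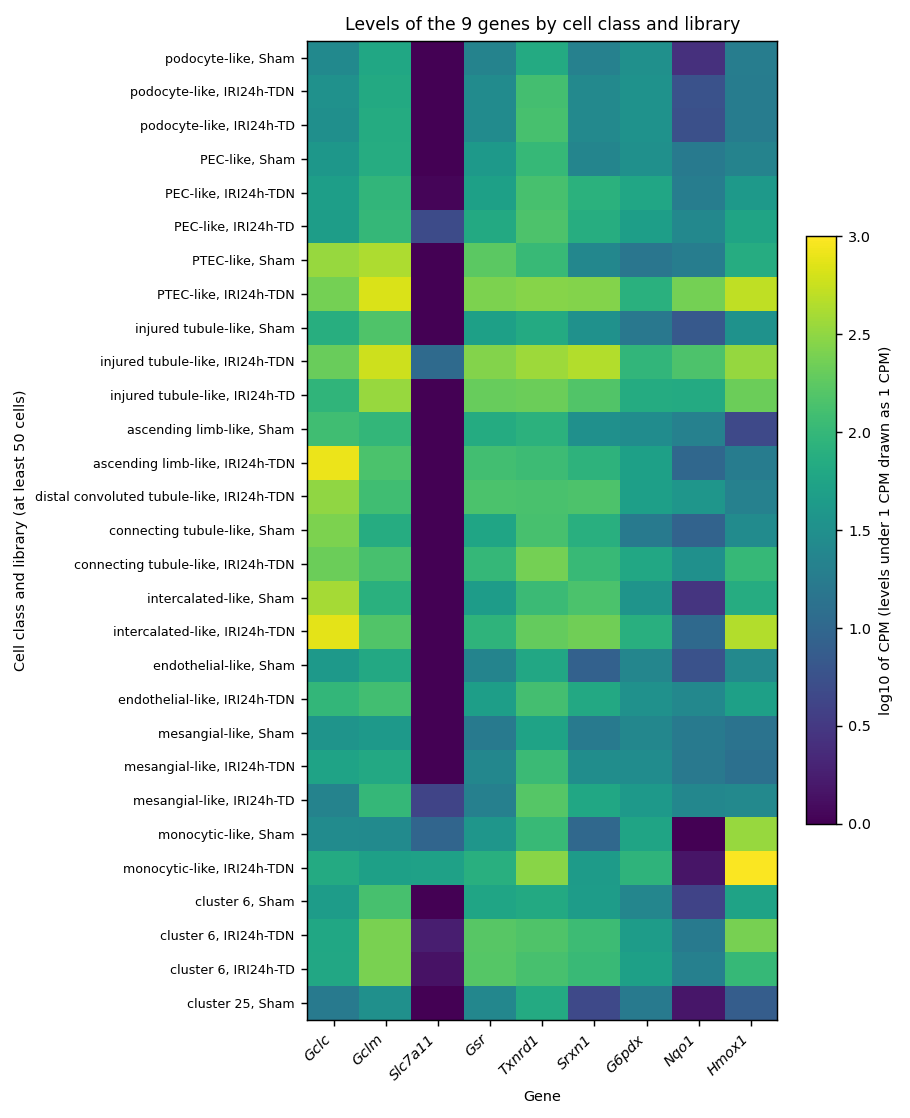
Levels of the 9 genes (columns) in each cell class and library with at least 50 cells (rows), as log10 of CPM on a colour scale, with levels under 1 CPM drawn as 1 CPM. Gclc is brightest in ascending limb-like and intercalated-like cells of IRI24h-TDN, Hmox1 in monocytic-like cells, and Slc7a11 is dark outside monocytic-like and injured tubule-like cells of IRI24h-TDN.

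Proximal tubule cells are the first group compared between IRI24h-TDN and Sham. The label "injured tubule-like" held for the cells of the IRI libraries and not for those of Sham. Havcr1 was detected in 80.9% of its 136 cells of IRI24h-TDN and 44.2% of its 104 cells of IRI24h-TD, but in 1 of its 97 cells of Sham, where Krt20 was found in 2 cells and Lcn2 in none. The Sham cells of this cluster also carried the podocyte gene Nphs1 at 2074 CPM, against 79.9 CPM in IRI24h-TDN, so that the cluster held unlike cells in the 2 libraries. Under other clusterings its cells mostly joined PTEC-like or unnamed clusters. PTEC-like cells in turn numbered 1013 in Sham and 51 in IRI24h-TDN, with Havcr1 in 3.36% and 68.6% of them and median mitochondrial shares of 17.7% and 29.2%. The PTEC-like and injured tubule-like cells were therefore also pooled within each library, so that Sham had 1110 cells, IRI24h-TDN 187 and IRI24h-TD 138, a choice made after seeing the data. A change of cell make-up and a change within cells cannot be told apart in this comparison.

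In these proximal cells, 6 of the 9 genes were at least 2-fold higher in IRI24h-TDN than in Sham and none was lower, against 18.5% and 15.2% of all genes. Their median log2 ratio was 2.41, and that of all genes was 0.15. The 6 were the genes of quinone reduction, of heme breakdown, of thioredoxin and peroxiredoxin repair, of NADPH supply and of cystine import. The 3 that stayed within 2-fold were the enzymes that make and reduce glutathione.

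Srxn1 (chr2:152105516-152111376) encodes sulfiredoxin, which restores overoxidized peroxiredoxins. Its level was 25.4 CPM (22.3 to 28.9) in Sham, 423 CPM (401 to 445) in IRI24h-TDN and 147 CPM (128 to 167) in IRI24h-TD. The ratio of IRI24h-TDN to Sham was 16.6, the highest of the genes with UMIs in both libraries.

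Nqo1 (chr8:107388225-107403206) encodes a quinone reductase and is a classic readout of NRF2. It stood at 17.8 CPM (15.1 to 20.7) in Sham, 159 CPM (145 to 173) in IRI24h-TDN and 69.5 CPM (57.1 to 83.9) in IRI24h-TD. This was 8.93-fold higher in IRI24h-TDN than in Sham. Hmox1 (chr8:75093621-75100589), the inducible heme oxygenase that splits heme into biliverdin, iron and carbon monoxide, went from 68.1 CPM (62.8 to 73.7) to 362 CPM (342 to 382) and 204 CPM (182 to 227) in the same order. Both IRI libraries lay above Sham for Nqo1 and Hmox1, with intervals apart.

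G6pdx (chrX:74409483-74429194) was found at 15.1 CPM (12.7 to 17.9) in Sham, 91.1 CPM (81.2 to 102) in IRI24h-TDN and 67.6 CPM (55.4 to 81.8) in IRI24h-TD. Txnrd1 (chr10:82833951-82897712), the cytosolic thioredoxin reductase, stood at 101 CPM (94.8 to 108), 353 CPM (334 to 374) and 201 CPM (179 to 224). Against Sham, IRI24h-TDN was 6.02-fold higher for G6pdx and 3.49-fold higher for Txnrd1. Slc7a11 (chr3:49892526-50443614), the cystine importer, had no UMI in the 1110 cells of Sham, where a count of 0 allows up to the floor of 3 UMIs. It reached 9.13 CPM (6.21 to 13.0) in IRI24h-TDN, at least 27.8-fold higher against this floor, and 0.638 CPM in IRI24h-TD. Just 6 cells of IRI24h-TDN held the 31 UMIs of Slc7a11, and 1 cell held 29.0% of them.

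The glutathione enzymes stayed within 2-fold of Sham in IRI24h-TDN. Gclm (chr3:122245557-122270732), the modifier subunit of glutamate-cysteine ligase, was at 399 CPM (386 to 412) in Sham, 599.7 CPM (574 to 626) in IRI24h-TDN and 334 CPM (306 to 364) in IRI24h-TD. Gsr (chr8:33652523-33698163), which reduces oxidized glutathione, was at 163 CPM (155 to 172), 276 CPM (259 to 295) and 188 CPM (167 to 210.3). Gclc (chr9:77754535-77794485), the catalytic subunit of the same ligase, was lower after IRI, at 320.5 CPM (309 to 332) in Sham, 213 CPM (198 to 229) in IRI24h-TDN and 92.5 CPM (78.1 to 109) in IRI24h-TD. The ratios of IRI24h-TDN to Sham were 1.5 for Gclm and 1.69 for Gsr, and Gclc was 1.51-fold lower. In these pooled cells the 2 subunits of 1 enzyme lay on opposite sides of Sham in IRI24h-TDN. In the injured tubule-like cluster alone both were higher, Gclm 3.96-fold and Gclc 2.73-fold, with the Sham cells described above. The part of cell make-up in this was not tested.

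**Figure D2:**
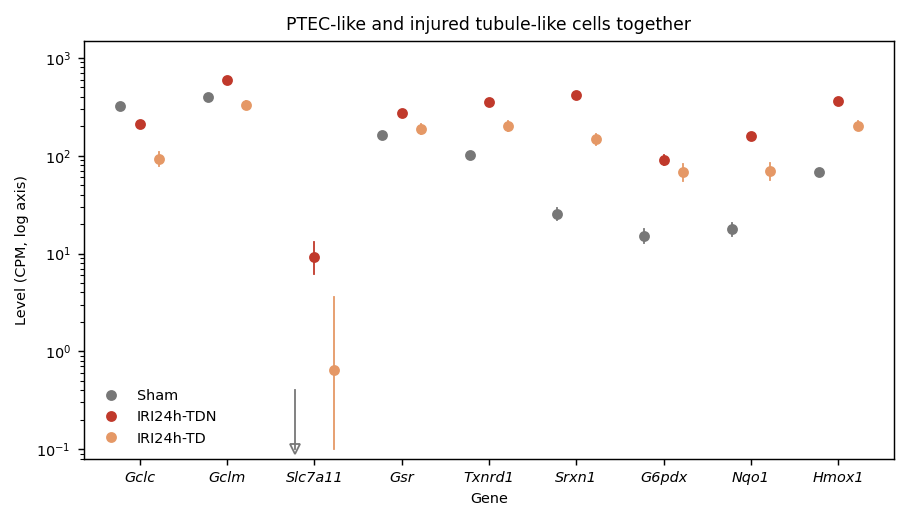
Levels (CPM, log axis) of the 9 genes in PTEC-like and injured tubule-like cells pooled, with points for the 3 libraries and lines for exact Poisson 95% intervals (cut at 0.1 CPM), and an open triangle for a level of 0. Srxn1, G6pdx, Nqo1 and Hmox1 lie well above Sham in both IRI libraries, whereas Gclm and Gsr lie close to Sham and Gclc below it.

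Kept apart, the classes gave related values. In PTEC-like cells 5 of the 8 genes with enough UMIs were higher in IRI24h-TDN than in Sham and none was lower, against 11.8% of all genes that were higher and 13.3% that were lower. Nqo1 was 12.3-fold higher, Srxn1 11.4-fold, Hmox1 7.23-fold, G6pdx 5.30-fold and Txnrd1 2.70-fold, with 51 cells of IRI24h-TDN. Clusters 7 and 13, which form this class, had 626 and 387 cells in Sham and 15 and 36 in IRI24h-TDN. The ratios of PTEC-like cells therefore also carry the mix of both clusters. In the injured tubule-like cluster all 9 genes were higher, against 18.7% of all genes, Slc7a11 by its lower bound. That count rests on the Sham cells that lacked the markers of the class and had a median depth of 8879 UMIs against 19271.5 in IRI24h-TDN. Set against the PTEC-like cells of Sham instead, a choice made after seeing the data, the injured tubule-like cells of IRI24h-TDN had 6 genes higher, against 23.1% of all genes. Gclc was then 1.66-fold lower in place of 2.73-fold higher, so that its direction depended on the Sham cells chosen. In IRI24h-TD, 7 of 8 genes were higher in this cluster than in its Sham cells (17.7% of all genes), where injury and sort cannot be told apart. Between the IRI libraries, 4 of 9 genes were at least 2-fold lower in IRI24h-TD than in IRI24h-TDN, against 3.74% of all genes. These were Gclc, Srxn1, Nqo1 and Slc7a11, and none was higher (9.18%). The cluster also held unlike cells in the IRI libraries. In IRI24h-TD and IRI24h-TDN, Nphs1 was at 281 and 79.9 CPM and the PEC gene Cp at 916 and 335 CPM. Havcr1 was at 1281 and 2706 CPM, and median depths were 9674.5 and 19271.5 UMIs. The part of these differences in the count was not tested.

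Other genes of the pathway were counted in the same proximal cells from lists that were set with earlier results of these data known. As above, 18.5% of all genes were higher and 15.2% lower in this comparison, against which each list count below is to be read. All 6 genes of NADPH supply had enough UMIs, and 4 were higher and 1 lower. Pgd, the second dehydrogenase of the pentose phosphate pathway, went from 52.3 to 296 CPM, Tkt from 70.6 to 336 CPM, Taldo1 from 182 to 765 CPM and Idh1 from 555 to 1111 CPM, whereas malic enzyme Me1 went from 590.4 to 290.3 CPM. Of 11 detoxification genes, 7 were higher and 1 lower. The aldo-keto reductase Akr1b8 went from 0.877 to 80.7 CPM, the carbonyl reductase Cbr3 from 0.987 to 38.0 CPM and the efflux pump Abcc4 from 11.5 to 89.0 CPM, while Osgin1 was lower, from 163 to 58.9 CPM.

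For heme and iron, 3 of 7 genes were higher and none lower, where 18.5% and 15.2% of all genes were. Biliverdin reductase Blvrb, which acts after heme oxygenase, went from 6.36 to 60.1 CPM, Blvra from 53.5 to 119.6 CPM and ferritin heavy chain Fth1 from 5274 to 12423 CPM. Of 10 thioredoxin and peroxiredoxin genes 3 were higher, Txn1 at 866 and 2557 CPM, Prdx1 at 1139.5 and 2579.9 CPM and Prdx6 at 228 and 629.7 CPM, and 1 was lower, the thioredoxin inhibitor Txnip at 104 and 50.4 CPM. Of the glutathione list 3 of 11 genes were higher and 3 lower. Its microsomal transferase Mgst1 went from 18.3 to 240.5 CPM, the glutaredoxin Glrx from 45.1 to 116 CPM and Chac1, which degrades glutathione, from 0.110 to 15.6 CPM, where Sham had 1 UMI. Ggct went from 178 to 18.3 CPM, Ggt1 from 459 to 121 CPM and Gpx4 from 345 to 39.2 CPM. Gpx4 was lower in every class compared, by 2.61 to 3.98 on the log2 scale, and a response of all cells and a shift between libraries cannot be told apart. None of the 4 other antioxidant enzymes differed 2-fold.

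Nfe2l2 and Keap1 stayed within 2-fold. Across the 11 classes compared, the log2 ratio of IRI24h-TDN to Sham lay between -0.35 and 0.62 for Nfe2l2 and between -0.91 and 0.45 for Keap1. In the proximal cells together Nfe2l2 was at 103 CPM in Sham and 157 CPM in IRI24h-TDN, and Keap1 at 24.3 and 22.1 CPM. In PTEC-like cells alone Nfe2l2 was at 101 CPM in Sham and 79.7 CPM in IRI24h-TDN, Keap1 at 24.1 and 20.9 CPM, and Bach1 at 40.2 and 53.1 CPM. In the injured tubule-like cluster, with the Sham cells described above, 2 of 11 regulators were higher, Bach1 (from 19.4 to 43.6 CPM) and Sqstm1 (from 716 to 1597 CPM), and 3 were lower, Nfe2l1 (from 495 to 114 CPM), Mafk (from 35.3 to 10.8 CPM) and Bach2 (from 13.7 to 6.63 CPM), where 18.7% and 17.9% of all genes were. In the proximal cells together, 2 of 11 regulators were higher and 1 lower, near the 18.5% and 15.2% of all genes. The higher ones were the small MAF gene Maff from 9.32 to 50.1 CPM and Sqstm1 from 678 to 1545 CPM, and the lower one was Bach2. RNA levels give no measure of the NRF2 protein, which is controlled by degradation.

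Along the distal nephron, Gclc followed another course than in proximal cells. In ascending limb-like cells its level was 119 CPM (97.1 to 144) in Sham and 816 CPM (792 to 842) in IRI24h-TDN, 6.86-fold higher, and 562 CPM in the 15 cells of IRI24h-TD. Of the 123 cells of Sham, 43.1% had a Gclc UMI (34.2 to 52.3), and of the 480 cells of IRI24h-TDN, 79.2% did (75.3 to 82.7). With cells thinned to 2400 UMIs each, the shares were 19.3% and 56.2%. One cell held 20.4% of the Sham UMIs. With at most 20% mitochondrial UMIs per cell in place of 50%, the log2 ratio of Gclc in ascending limb-like cells was 1.14 in place of 2.78, and the class had a median mitochondrial share of 26.3% in Sham and 23.6% in IRI24h-TDN.

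In all, 3 of 8 genes were higher in ascending limb-like cells, Gclc, Hmox1 and Srxn1, against 9.6% of all genes, and Nqo1 was 2.05-fold lower on 18 and 52 UMIs, against 11.7% of all genes. Srxn1 was at 32.3 CPM in Sham and 86.3 CPM in IRI24h-TDN. Hmox1 was at 4.62 CPM in Sham, on 4 UMIs, and at 18.4 CPM in IRI24h-TDN, and with the limit of 20% mitochondrial UMIs the log2 ratios were 0.20 for Hmox1 and 0.35 for Srxn1, which left Gclc as the 1 gene past the limit. The distal convoluted tubule-like class, with 49 cells of Sham, was not compared, and had Gclc at 294 CPM (253 to 341) and 316 CPM (303 to 329).

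In connecting tubule-like cells Gclc stayed within 2-fold, at 256 CPM (234 to 279) in Sham and 213 CPM (199 to 227) in IRI24h-TDN. There 3 of 8 genes were higher, against 9.98% of all genes, and none was lower (6.93%). G6pdx went from 17.0 to 63.1 CPM, Hmox1 from 28.1 to 102 CPM and Nqo1 from 9.02 to 32.0 CPM. All 3 kept a log2 ratio above 1 in the 12 alternatives computed for them.

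Intercalated-like cells, which secrete acid or base in the collecting duct, formed 2 clusters that differed in Hmox1. Cluster 20, with the pendrin gene Slc26a4 of base-secreting cells among its leading genes, had Hmox1 at 545 CPM, and cluster 19, with the anion exchanger gene Slc4a1 of acid-secreting cells among them, had it at 46.0 CPM. Hmox1 was at 177 CPM (148 to 211) in the 52 cells of cluster 20 in Sham and at 637 CPM (610 to 665) in its 205 cells of IRI24h-TDN. In cluster 19 it was at 14.2 CPM (8.55 to 22.2) in 127 cells of Sham and 74.2 CPM (61.1 to 89.2) in 137 cells of IRI24h-TDN. Within both clusters the level was thus higher in IRI24h-TDN, and within both libraries cluster 20 lay above cluster 19.

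Gclc was alike in both clusters in Sham, at 387 CPM in cluster 19 and 398 CPM in cluster 20. In IRI24h-TDN it was at 462 CPM (429 to 498) in cluster 19 and 892 CPM (860 to 926) in cluster 20. Over the whole class, 3 of 8 genes were higher, against 9.31% of all genes, and none was lower (6.42%), Hmox1 (6.36-fold), Nqo1 (3.64-fold, on 6 UMIs in Sham) and G6pdx (2.20-fold). G6pdx was under the limit when thinned (log2 ratio 0.84) and with at most 20% mitochondrial UMIs (0.88), and the count was 5 without doublets or without the top cell of each gene. Since cluster 20 took a larger part of the class in IRI24h-TDN, these ratios also carry the mix of both clusters.

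**Figure D3:**
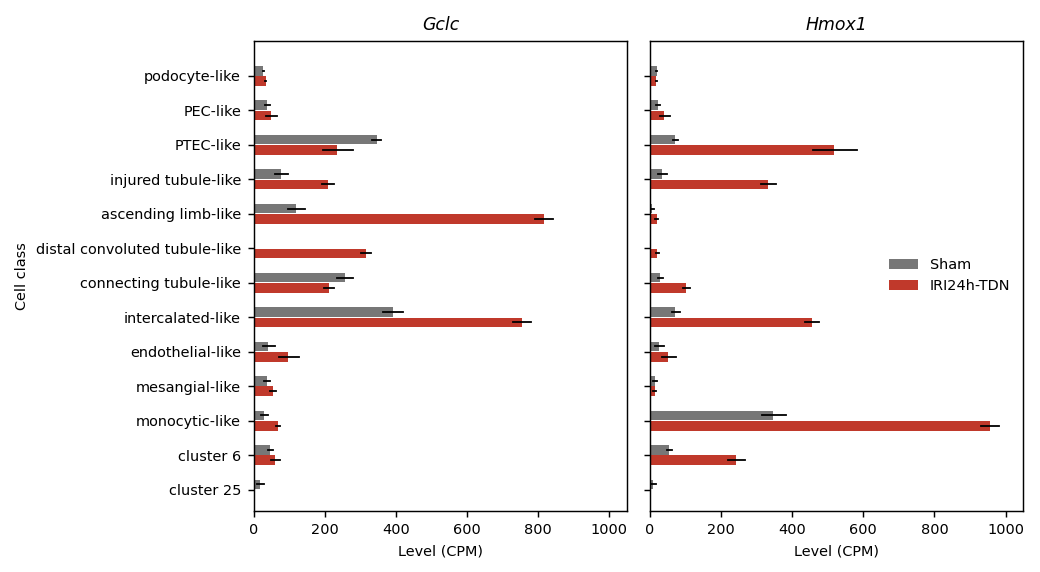
Levels (CPM) of Gclc and Hmox1 by cell class in Sham and IRI24h-TDN, as bars with exact Poisson 95% intervals, for classes with at least 50 cells in the library. Gclc reaches 816 CPM in ascending limb-like cells of IRI24h-TDN and is below Sham in PTEC-like cells, and Hmox1 reaches 956 CPM in monocytic-like and 456 CPM in intercalated-like cells of IRI24h-TDN.

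Monocytic-like cells are phagocytes that clear dying cells and their heme, and they were the class with the highest Hmox1. Its level was 347 CPM (315 to 382) in 272 cells of Sham and 956 CPM (931 to 981) in 906 cells of IRI24h-TDN, 2.75-fold higher. The 13 cells of IRI24h-TD gave 4392 CPM, with 81.2% of these UMIs in 1 cell, and were not compared. In this class 6 of 8 genes were higher in IRI24h-TDN than in Sham and none was lower, against 15.7% and 7.31% of all genes. Slc7a11 went from 9.62 CPM (4.97 to 16.8) to 51.5 CPM (46.0 to 57.5), Srxn1 from 10.4 to 44.0 CPM, Txnrd1 from 104 to 291 CPM, Gclc from 28.1 to 68.0 CPM and Gsr from 37.7 to 78.7 CPM. Of these 6 calls, 2 were lost under 1 alternative each, Gsr with TMM scaling (log2 ratio 0.82) and Gclc in thinned cells (0.57). Nqo1 was nearly absent, with no UMI in Sham and 9 in IRI24h-TDN.

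The monocytic-like cells of the 2 libraries lay in part in different clusters. Cluster 23, led by Lyz2 and Chil3, had 14 cells of Sham and 195 of IRI24h-TDN, and it held Slc7a11 at 146 CPM and Gsr at 201 CPM. Within cluster 5, led by Ccl4 and C1qc, Slc7a11 was at 0.922 CPM on 1 UMI in Sham (0.0233 to 5.14) and 25.9 CPM in IRI24h-TDN (21.2 to 31.3), and Hmox1 at 394 CPM (357 to 433) and 967 CPM (937 to 997). Slc7a11 was also found in 52 neutrophil-like cells, at 643 CPM (490 to 830) in the 25 cells of Sham and 147 CPM (97.2 to 215) in the 26 of IRI24h-TDN. An unnamed cluster of 89 cells led by class II MHC genes had no Slc7a11 UMI in its 42 cells of Sham and 36 UMIs in its 46 cells of IRI24h-TDN. These groups were too small to compare.

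In podocyte-like cells most of the 9 genes stayed within 2-fold of Sham. Of the 9 genes, 2 were higher in IRI24h-TDN than in Sham, Nqo1 and Slc7a11, and none was lower, against 5.24% and 9.51% of all genes. Their median log2 ratio was 0.31, and that of all genes was -0.06. In IRI24h-TD the same 2 genes were higher than in Sham and none was lower, against 5.18% and 11.5% of all genes, where both comparisons share the Sham library. Nqo1 was at 2.58 CPM (2.10 to 3.15) in Sham, 5.71 CPM (5.07 to 6.41) in IRI24h-TDN and 5.40 CPM (4.92 to 5.91) in IRI24h-TD. Slc7a11 was near the limit of detection, with 4 UMIs in 4469 cells of Sham, 30 in 5329 cells of IRI24h-TDN and 83 in 9069 cells of IRI24h-TD.

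Txnrd1 in podocyte-like cells was at 67.5 CPM (64.9 to 70.2) in Sham, 126 CPM (123 to 129) in IRI24h-TDN and 135 CPM (132 to 137) in IRI24h-TD. The ratios to Sham were 1.86 and 2.0, the second just under the limit before rounding. In thinned cells Txnrd1 was found in 13.3%, 23.7% and 25.6% of podocyte-like cells in the same order. Hmox1 was at 18.5, 18.2 and 18.2 CPM, and G6pdx at 32.0, 33.5 and 34.2 CPM. Gclm, Gclc, Gsr and Srxn1 were each 1.09-fold to 1.29-fold higher in IRI24h-TDN than in Sham. Between the IRI libraries no gene differed 2-fold in podocyte-like cells, against 0.722% of all genes that were higher and 3.19% that were lower in IRI24h-TD. Of these cells, clusters 3 and 4 came almost wholly from IRI24h-TD and cluster 8 had a median of 1031 UMIs, and without these clusters, a choice made after seeing the data, the count was 2 against Sham in both IRI libraries.

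PEC-like cells, which line Bowman's capsule, had 1 gene of 8 higher in IRI24h-TDN than in Sham, against 4.62% of all genes, and none lower (9.37%). Under other cell filters and clusterings the count was up to 3. The gene was Srxn1, at 23.1 CPM (18.7 to 28.3) in 571 cells of Sham, 82.1 CPM (64.5 to 103) in 104 cells of IRI24h-TDN and 73.8 CPM (58.1 to 92.4) in 118 cells of IRI24h-TD. In IRI24h-TD, Srxn1 and Hmox1 were higher than in Sham, against 3.87% of all genes, and none was lower (9.44%). Hmox1 was at 21.9 CPM (17.6 to 26.9), 40.5 CPM (28.5 to 55.8) and 56.3 CPM (42.8 to 72.8), with 29.3% of the UMIs of IRI24h-TD in 1 cell. Nqo1 in PEC-like cells was at 17.5, 18.6 and 25.2 CPM, above podocyte-like cells in each library. The intervals of Nqo1 in PEC-like cells overlapped between the libraries. No gene differed 2-fold between the IRI libraries in PEC-like cells, against 2.38% of all genes that were higher and 2.75% that were lower in IRI24h-TD.

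Cluster 6 stayed unnamed, with 661 cells led by Gc, Wfdc16 and Sox9. Here 5 of 8 genes were higher in IRI24h-TDN than in Sham, against 6.04% of all genes, and none was lower (11.0%). Markers moved with this count: Havcr1 was detected in 0.545% of its cells of Sham and 26.4% of those of IRI24h-TDN, Krt20 in 7.08% and 52.9%, and Lrp2 was at 962 and 304 CPM, and their part in the result was not tested. Hmox1 went from 54.6 CPM (47.5 to 62.3) in Sham to 241 CPM (218 to 266) in IRI24h-TDN and 104 CPM (90.4 to 118) in IRI24h-TD. Gsr was at 58.3, 165 and 161 CPM, Srxn1 at 46.0, 113 and 108 CPM, Txnrd1 at 66.4, 148 and 132 CPM, and Nqo1 at 4.02, 16.8 and 20.3 CPM. The 4 genes G6pdx, Gsr, Nqo1 and Srxn1, were higher in IRI24h-TD than in Sham and none was lower, against 6.67% and 9.12% of all genes. Hmox1 was 2.33-fold lower in IRI24h-TD than in IRI24h-TDN in cluster 6, the 1 gene of 8 past the limit, against 1.44% of all genes that were lower and 2.88% that were higher.

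Endothelial-like cells had 4 of 7 genes higher in IRI24h-TDN, against 6.48% of all genes, and none lower (9.23%). Srxn1 was at 8.51 CPM (3.12 to 18.5) in Sham, on 6 UMIs, and at 64.3 CPM (44.2 to 90.3) in IRI24h-TDN, Gclc at 41.1 and 97.4 CPM, Gsr at 22.7 and 48.7 CPM, and Txnrd1 at 62.4 and 127 CPM. This class was shallow, with medians of 2330.0 and 3822.5 UMIs, and in thinned cells 1 gene was higher. In mesangial-like cells 1 of 8 genes, Txnrd1, was higher in IRI24h-TDN, at 55.0 and 111 CPM, against 4.33% of all genes, and none was lower (6.34%), a count that was 0 under 3 of the other settings. Mesangial-like cells of IRI24h-TD had Txnrd1 at 161 CPM, and Txnrd1, Srxn1 and Gclm were higher than in Sham, 3 of 8 genes against 16.0% of all genes, and none was lower (13.3%). Of the 94 cells of IRI24h-TD, 80 lay in cluster 22, led by Ren1, against 72 of the 292 cells of Sham. Within cluster 22, Txnrd1 was at 76.2 CPM (52.8 to 106) in Sham and 155 CPM (126 to 189) in IRI24h-TD, Srxn1 at 17.9 CPM (7.74 to 35.3) and 62.0 CPM (44.3 to 84.4), and Gclm at 51.5 CPM (32.7 to 77.3) and 104 CPM (80.5 to 132).

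**Figure D4:**
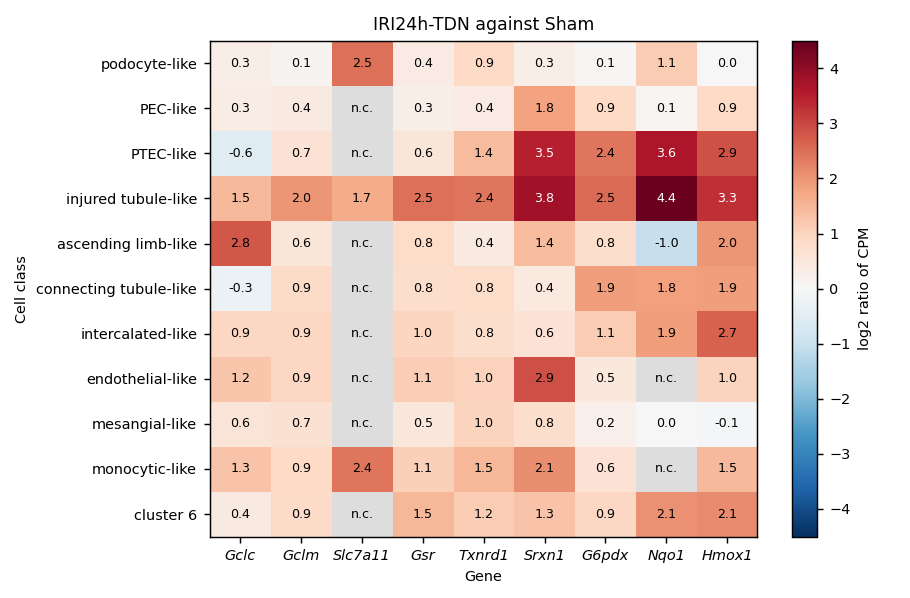
The log2 ratio of CPM in IRI24h-TDN to Sham for the 9 genes (columns) in the 11 cell classes compared (rows), on a colour scale from blue (lower) to red (higher). Entries marked n.c. had fewer than 20 UMIs, Slc7a11 in injured tubule-like cells is a lower bound, Srxn1, Nqo1 and Hmox1 are highest in PTEC-like and injured tubule-like cells, Gclc in ascending limb-like cells, and most values in podocyte-like and PEC-like cells are near 0.

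The genes were next counted within single cells. Every cell was thinned to 2400 UMIs, 1368 shallower cells were left out, and a cell counted when at least 3 of the 9 genes had a UMI. No cell type is known to lack all of these genes, so that no share could serve as the background of free RNA. In podocyte-like cells the share was 0.916% (0.655 to 1.24) in Sham, 2.37% (1.97 to 2.81) in IRI24h-TDN and 2.46% (2.14 to 2.81) in IRI24h-TD. PTEC-like cells of Sham had a share of 23.1% (20.4 to 26.0), and fewer than 50 thinned PTEC-like cells remained in IRI24h-TDN. The highest share was that of injured tubule-like cells of IRI24h-TDN, with 57.0% (48.2 to 65.5), against 32.5% (22.2 to 44.1) in IRI24h-TD.

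Among other classes, the share went from 13.9% (9.05 to 20.2) in Sham to 41.6% (36.4 to 47.1) in IRI24h-TDN in intercalated-like cells and from 5.26% (1.96 to 11.1) to 19.2% (15.8 to 23.1) in ascending limb-like cells. It went from 5.37% (2.89 to 9.01) to 20.4% (17.8 to 23.2) in monocytic-like cells and from 10.8% (7.10 to 15.5) to 21.9% (17.8 to 26.5) in connecting tubule-like cells. In cluster 6 it was 4.94% (2.85 to 7.90), 21.7% (14.6 to 30.4) and 20.8% (14.6 to 28.2) in Sham, IRI24h-TDN and IRI24h-TD. Mesangial-like cells stayed low, at 0.741%, 1.98% and 1.28%, with overlapping intervals.

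**Figure D5:**
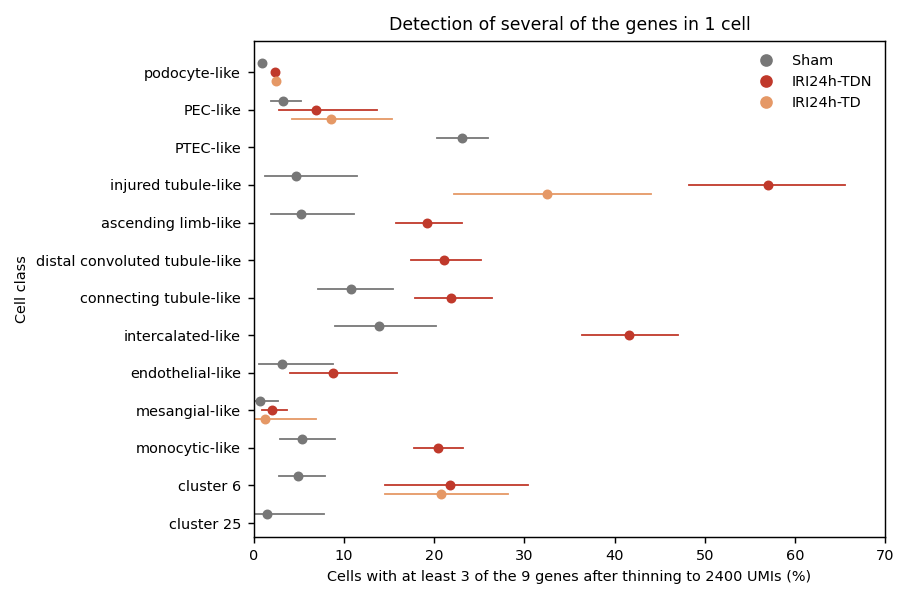
Share of cells with at least 3 of the 9 genes after thinning to 2400 UMIs (x axis, percent) by cell class (y axis) and library, as points with exact Clopper-Pearson 95% intervals, where at least 50 thinned cells remained. Injured tubule-like and intercalated-like cells of IRI24h-TDN lie farthest to the right at 57.0% and 41.6%, and podocyte-like cells of all libraries lie under 3%.

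The genes did not all share 1 pattern. Over the 29 class-by-library groups with at least 50 cells, Pearson's r of log2(CPM + 10) was highest between Gclm and Gsr (0.86) and between Txnrd1 and G6pdx (0.82). It was lowest for Slc7a11, at -0.12 with both Gclc and Gclm, and the subunits Gclc and Gclm had an r of 0.50. The groups share libraries and depth, and these values are a description. Among 8307 genes, those most like Txnrd1 were Pgd (0.87), Ftl1-ps1 (0.86), a pseudogene of ferritin light chain whose reads cannot be told from those of its parent, and G6pdx itself. Pgd was also the gene most like G6pdx (0.84). Srxn1 was most like Taldo1 (0.91), Gclm most like Xpnpep1 (0.94) and Esd (0.93), Gsr most like Plpp2 (0.92), Gclc most like Tmem116 (0.89) and Aldh1l1 (0.89), Hmox1 most like Prcp (0.85), and Nqo1 most like Ttpa (0.83) and Gsta1 (0.82). Slc7a11 was most like the myeloid genes Chil3 (0.91), Clec4n (0.90) and Saa3 (0.90).

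Some counts could hold reads of other genes. G6pdx has the near copy G6pd2, which had 36 UMIs against 9277 for G6pdx. It overlaps Ikbkg (5894 UMIs) on the other strand, and Txnrd1 overlaps Eid3 (388 UMIs against 31546) on the same strand, by GENCODE M21. Whether the authors' counting used strand is not given in the sources used here.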

How the data were processed

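For 3 libraries, the authors deposited tables of UMI counts, not normalized, by gene and barcode, and their processing notes name CASAVA 1.8, UMI-tools, Seurat and mm10. The tables held 69980443, 92355554 and 93470709 UMIs. Here, cells were clustered on 2000 variable genes without the 9 genes, the pathway lists and mitochondrial, ribosomal protein and hemoglobin genes, with 30 components, a Harmony correction between libraries, 15 neighbours and Leiden resolution 1 (leidenalg 0.10.2, Python 3.11.15). Clusters were named from 14 marker lists, by a rule for leading genes chosen after seeing a first clustering. Members, lists and markers were chosen with earlier results of these data known. The text names the 9 genes in every class, the 3 genes most like each, and listed pathway genes past 2-fold with at least 20 UMIs. Zero counts were set to 3 for ratios. Doublets were scored, not removed. Alternatives changed cell filters, clustering, thinning and scaling (TMM, edgeR 4.0.16). Only the 2-fold rule was tested on simulated counts, for podocyte-like, PTEC-like and intercalated-like cells. It recovered 89% to 97% of the genes given 4-fold or 8-fold changes. The simulated counts carried counting error only, without variation between cells or libraries, and smaller changes were not tried. Cell filters, clustering, naming and thinning were not tested in this way.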

Additional observations from a re-analysis of the deposited data

Results flagged for a closer look

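Gclc differed in direction between cell classes. Its log2 ratio of IRI24h-TDN to Sham was 2.78 in ascending limb-like cells and -0.56 in PTEC-like cells, and in both classes the counting intervals of the libraries were apart. PTEC-like cells lay in clusters 7 and 13, with Gclc at 402 and 135 CPM over all libraries. Cluster 7 had 626 cells of Sham and 15 of IRI24h-TDN, and cluster 13 had 387 and 36. The ratio in PTEC-like cells therefore also carries the mix of both clusters, whose part was not tested. The difference between the classes was not tested, since each condition had 1 library.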

How the results depend on the processing

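No paired analysis was possible because each condition had 1 library, and for the same reason none could be left out. Of the results computed under alternatives, 317 counts, shares and classes stayed close to the main value (a count within 1.5 times of it, a share within its interval) and 54 moved, and of the values of single genes 1934 kept, 73 passed the 2-fold limit anew, 35 fell under it, 255 moved and 2 reversed. Of the alternatives, 6 were chosen after seeing the data. The reversals were Gclc in injured tubule-like cells (-0.73 on the log2 scale against PTEC-like cells of Sham) and G6pdx in PEC-like cells of IRI24h-TD (-1.21 when thinned). The cause was not tested for any of these.

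Counts of genes higher in IRI24h-TDN than in Sham moved as follows. Thinning to 2400 UMIs gave 1 in podocyte-like, 2 in PEC-like and 1 in endothelial-like cells. PEC-like cells gave 3 with at least 500 genes, 2 with at most 20% mitochondrial UMIs and 3 at resolution 2. Without correction between libraries, injured tubule-like cells gave 5, and with at most 20% mitochondrial UMIs ascending limb-like cells gave 1. Leaving out the top 6% of doublet scores, or the cell with most UMIs for each gene, gave 5 in intercalated-like cells. Mesangial-like cells gave 0 with at least 500 genes, without doublets, or without mitochondrial and ribosomal protein UMIs. A limit of 1.5-fold gave 3 in PEC-like, 5 in ascending limb-like, 6 in connecting tubule-like, 8 in intercalated-like and 4 in mesangial-like cells. The lower call of Nqo1 in ascending limb-like cells went to 0 with at most 20% mitochondrial UMIs, without doublets, without correction, at resolution 2, when thinned, with TMM and without the top cell.

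In IRI24h-TD against Sham, PEC-like cells gave 4 higher at resolution 2 and, when thinned, 1 higher and 1 lower. Mesangial-like cells gave 1 lower without doublets, by the mean of single cells and at 1.5-fold, with 1 higher when thinned and 5 at 1.5-fold. Cluster 6 gave 7 at 1.5-fold. Genes highest in the proximal classes numbered 2 with at least 500 genes, without correction and at resolution 2, and 3 with at most 20% mitochondrial UMIs, at resolution 0.5 and by the mean of single cells. The share of cells with at least 3 genes at 5000 UMIs, and with at least 2 genes, was 6.43% and 9.27% in podocyte-like cells of Sham, 11.6% and 14.7% in those of IRI24h-TDN, 86.4% and 79.3% in injured tubule-like and 73.3% and 64.5% in intercalated-like cells of IRI24h-TDN. The share of all genes that were higher was 6.11%, 3.9% and 5.72% in podocyte-like and 17.6%, 7.74% and 10.6% in PTEC-like cells with at least 10 UMIs, at least 100 UMIs and TMM.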
